A study of Homo sapiens with 12 samples.

Results

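The 3′ ends of the mitochondrial ribosomal RNAs were followed in human HEK293T cells by 3′READS+, which reads polyadenylated RNA just before its tail and so gives a read count for each poly(A) site. Sites were taken from the plus strand of the mitochondrial chromosome of hg19 (16571 nt) between positions 650 and 3260, with at least 10 reads in any library of their table. The rule was met by 71 of the 640413 sites counted in pull-downs, and by 60 of the 189010 counted in cell fractions. Positions 650 to 1640 were assigned to MT-RNR1, the 12S rRNA of the small mitochondrial ribosomal subunit, and 1641 to 3260 to MT-RNR2, the 16S rRNA of the large subunit. A site within 30 nt of the gene end (1603 for MT-RNR1, 3231 for MT-RNR2) was called full-length, and any other was called internal. A read shows where an RNA ended and not where it began, so a full-length end need not belong to a whole rRNA.

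Both rRNAs are cut from a long precursor of the heavy strand, in which the genes for tRNA-Phe, 12S rRNA, tRNA-Val, 16S rRNA and tRNA-Leu follow each other and excision of the tRNAs frees the rRNA ends. Mature mitochondrial rRNAs carry only short oligo(A) additions, and tails at internal positions of mitochondrial RNAs have been linked to RNA decay. The counts do not tell a tail on a shortened RNA from capture at a run of A inside an RNA. Nuclear DNA holds copies of these genes, and the sources used here do not give how reads matching both were placed.

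All pull-down libraries came from a STAU1-knockout HEK293T line, clone C8, made by double nicking with a Cas9 nickase. These cells transiently expressed either STAU1-FLAG, a tagged form of Staufen1, which binds double-stranded RNA, or FLAG-GFP as a tagged control. Input RNA came from the whole lysate and pull-down RNA from precipitation with an antibody to FLAG, with 2 libraries in each of the 4 groups. The fractions were cytoplasmic RNA and polysomal RNA of the knockout C8 and its isogenic control C9, called wild type here, with 1 library each. Each genotype is thus 1 clone. The labels do not say whether replicates came from separate cultures, so the spread between these libraries behind the p-values may be technical. The edgeR tests below also draw on the spread at other sites. The tables name no gene, so neither the STAU1 transcript nor markers of the cell line were checked. The results below are levels relative to the other RNA of a library, in which fewer molecules of one kind and more of another cannot be told apart.

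Pull-down and input libraries held 1245270 to 9655646 reads, the GFP pull-downs being the smallest, and fraction libraries held 2799226 to 3483937. The rRNA sites held 7767 and 8889 reads in the GFP pull-downs, 28239 and 29054 in the STAU1 pull-downs and 99305 to 162034 in the inputs. They held 26637 and 36827 reads in the cytoplasmic libraries, against 1875 (wild type) and 3006 (knockout) in the polysomal ones. The sites took 1.45 to 1.78% of all input reads, 0.468 to 0.714% of pull-down reads, 0.917 and 1.14% of cytoplasmic reads and 0.0670 and 0.0863% of polysomal reads.

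Ends lay along almost the whole of both genes. In the pull-down table MT-RNR1 had 1 full-length site, at 1600, and 21 internal sites. MT-RNR2 had 3 full-length sites, at 3201, 3230 and 3259, and 46 internal sites. The median distance between neighbouring sites was 31.5 nt and the shortest 25 nt. The longest stretch without a site lay in MT-RNR1, from 1076 to 1287 (211 nt), and the fractions, sequenced separately, had their longest one at nearly the same place, from 1079 to 1295 (216 nt). All 60 sites of the fractions had a pull-down site within 24 nt, 34 of them at the same position. With pull-down sites 31.5 nt apart at the median, most positions lie within 24 nt of one. The match within 24 nt was thus nearly fixed in advance and is no measure of agreement.

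Reads were concentrated on few of these sites. In the 16S gene, the end at 3230 alone held 316919 reads over the 8 libraries, and the internal site at 3043, 188 nt before the gene end, held 61412. The next internal sites, at 2818 and 3175, held 24458 and 16394. The inputs dominate these sums, and the order differed in some pull-downs: 1936 was above 3175 in STAU1 pull-down replicate 1 (155 against 95.2 CPM, counts brought to a common library size and scaled by TMM) and in both GFP pull-downs (168 and 164 against 67.7 and 103.5 CPM). In GFP pull-down replicate 1, 3043 was above 3230 (1435 against 1341 CPM). In the 12S gene the full-length end at 1600 held 10782 reads, hardly more than the internal site at 1423 (10000) and that at 752 (8879). From 3 to 4 sites made up 50% of the internal reads of MT-RNR1 in each of the 8 libraries, and from 2 to 5 sites those of MT-RNR2.

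**Figure D1:**
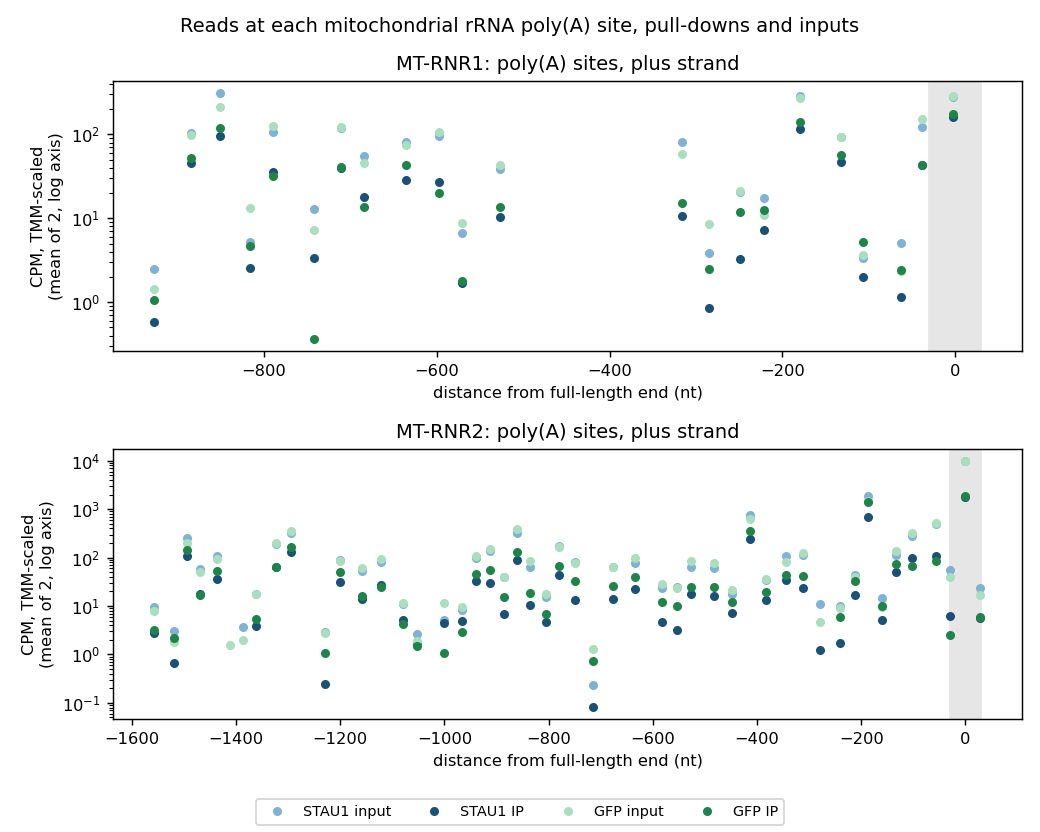
Level of each pull-down-table site (mean of 2 libraries, CPM scaled by TMM, log axis) against its distance from the gene end in nt, with the full-length window in grey, for MT-RNR1 (top) and MT-RNR2 (bottom). In the mean of each group the 16S end stands above every internal site of its gene, while the 12S end in the inputs is near the levels of the internal sites at 752 and 1423; points at 0 cannot be drawn on the log axis.

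The order of the internal sites by level was alike across libraries. Spearman's rho between replicates ranged from 0.927 to 0.978 over the pull-down table's internal sites, and between other pairs of its libraries from 0.923 to 0.989. Within the fraction table it was 0.905 to 0.971 over 56 internal sites. Between tables, over matched sites, it was lower, 0.607 to 0.731. Sites were matched to the nearest within 24 nt, so a pair need not be the same end. For instance, 827 of the fractions (45 reads) was paired with 813 of the pull-down table (3980 reads). Whether the matching lowered rho was not tested. All these rho values are descriptions across sites that share a library and often a transcript, and sites are not independent.

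In the STAU1 pull-down, both rRNAs were lower than in the STAU1 input, at their ends and inside. MT-RNR1 summed over its sites was at 738 and 660 CPM in the 2 pull-downs and at 1968 and 1751 in the 2 inputs. MT-RNR2 was at 3743 and 3976 CPM against 15892 and 16685. No pull-down library reached an input library for either gene. The log2 change was -1.41 ± 0.16 (SE, adjusted p = 1.90e-05) for MT-RNR1 and -2.08 ± 0.16 (adjusted p = 2.41e-07) for MT-RNR2, by edgeR's quasi-likelihood test with Benjamini-Hochberg adjustment over all features of the table.

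Of the 71 sites, 68 passed the filter on low counts (all but 676, 1819 and 2517), and a site had to be abundant in only 1 of the groups to pass. With STAU1, 49 of these were lower than in the input (edgeR, adjusted p under 0.05) and 0 higher. Over all 33744 sites tested, 2.99% were called lower and 3.06% higher. The median log2 change was -1.70 for the rRNA sites and 0.12 for all sites. By class, 13 of 20 internal sites and the end of MT-RNR1 were called lower, as were 32 of 44 internal and 3 of 3 full-length sites of MT-RNR2. All 44 rRNA sites with an average log2 CPM of at least 4 were called, where 12.7% of all 6218 such sites were called lower. The 19 sites not called were the scarce ones, none above an average log2 CPM of 3.91, and all 19 had a log2 change below 0. Over all 33744 sites, 15646 were below 0. A scarce site could pass the filter through its input reads alone, as 1845 did without a read in any pull-down. The sign at such sites is thus no further support. Leaving out each library in turn left 40 to 47 sites called lower, the fewest without STAU1 input replicate 1.

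The plus-strand sites elsewhere on the mitochondrial chromosome, which hold the ends of the mRNAs, tRNAs and control-region RNAs, were low in the same pull-down. Of 373 tested, 86 were called lower and 1 higher, with a median log2 change of -1.42. The rRNA sites made up 19.0 and 20.0% of all plus-strand mitochondrial reads in the STAU1 pull-downs, 24.3 and 26.6% in the GFP pull-downs and 24.6 to 28.7% in the inputs. On the opposite strand of the rRNA window, 0 of 10 tested sites were called in the STAU1 pull-down, and their median log2 change was 1.04. In the GFP pull-down 1 of these 10 was called lower (median 0.82), and in the difference between the pull-downs 1 was called higher (median 0.29). Antisense reads were 16.0 and 18.7% of the window's reads in the STAU1 pull-downs, 7.14 and 8.28% in the GFP pull-downs and 4.68 to 7.97% in the inputs.

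The rRNAs were also lower in the GFP pull-down than in the GFP input. MT-RNR1 was at 823 and 794 CPM in the pull-downs and at 1771 and 1778 in the inputs. MT-RNR2 was at 4542 and 5679 CPM in the pull-downs and at 13942 and 17794 in the inputs. The groups again did not overlap. The log2 change was -1.13 ± 0.16 (adjusted p = 0.000154) for MT-RNR1 and -1.64 ± 0.16 (adjusted p = 4.00e-06) for MT-RNR2 (edgeR, Benjamini-Hochberg).

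With GFP, 32 of the 68 tested sites were called lower than in the input and 0 higher, where 3.99% of all sites were called lower and 2.11% higher. Their median log2 change was -1.37, and -1.35 with the 2 sites that had no read in either GFP pull-down set to the bound that 3 reads over the group would give. The median of all sites was -0.16. This scaling matters for all sites together: TMM gave 711 higher and 1348 lower calls, and library totals 1211 higher and 751 lower, with a median of 0.13. The rRNA sites stayed on one side, with 24 lower and 0 higher under library totals. Without GFP pull-down replicate 1 the count of rRNA sites called lower was 17. Among sites with an average log2 CPM of at least 4, 32 of 44 rRNA sites were called lower, against 18.8% of all such sites. By class these were 9 of 20 internal sites and the end of MT-RNR1, with 20 of 44 internal and 2 of 3 full-length sites of MT-RNR2. Elsewhere on the mitochondrial plus strand, 57 of 373 sites were called lower and 0 higher, with a median of -1.54.

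Every site called in the GFP pull-down was also called in the STAU1 pull-down: 32 were lower in both, 17 in the STAU1 pull-down alone and 19 in neither. Whether the pull-downs differed at these sites is the question of the double ratio below, not of this count. Over all 33744 tested sites, 1008 were called lower with STAU1 and 1348 with GFP. The same overlap was not counted over all tested sites, so it cannot be read as a trait of the rRNA sites. The GFP pull-downs also held fewer reads at the rRNA sites (7767 and 8889) than the STAU1 pull-downs (29054 and 28239).

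**Figure D2:**
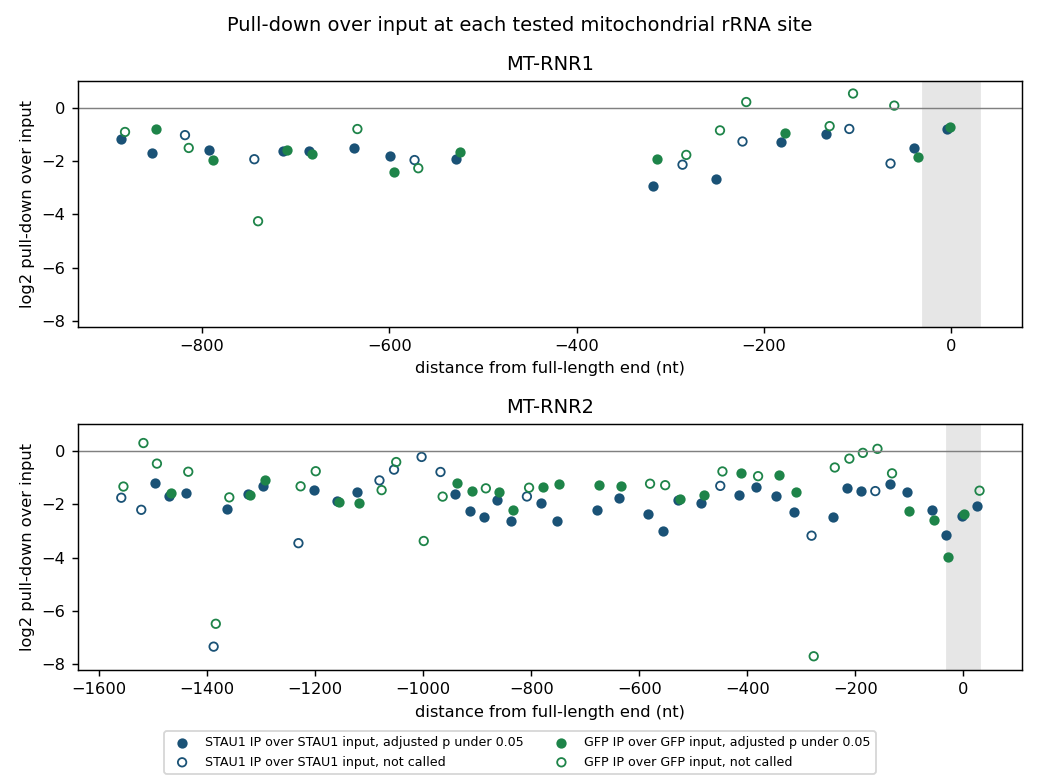
Log2 pull-down over input at each tested site against distance from the gene end in nt, for STAU1 (blue) and GFP (green), drawn 2 nt to either side of each site; filled points were called by edgeR and the grey band is the full-length window. All 68 STAU1 values are below 0, as are 63 of the 68 GFP values, and the 3 points below -5 belong to sites without a read in that pull-down, whose fitted values are no bound. Over all 33744 tested sites, 15646 STAU1 and 18403 GFP values are below 0.

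The full-length ends of both rRNAs were lower in the pull-downs; whether the drop differed between the genes was not tested. The 12S end was at 160 and 159 CPM in the STAU1 pull-downs and at 285 and 276 in the STAU1 inputs. In the GFP pull-downs it was at 177 and 170 CPM, and in the GFP inputs at 320 and 260. Pull-downs were below their inputs in both tags, with a log2 change of -0.81 ± 0.19 for STAU1 (adjusted p = 0.0140) and -0.74 ± 0.20 for GFP (adjusted p = 0.0274, edgeR). These calls had the largest adjusted p among the summed classes. The STAU1 call was lost without STAU1 pull-down replicate 1, pull-down replicate 2 or input replicate 1 (adjusted p = 0.0851, 0.0723 and 0.0832). The GFP call was lost without GFP pull-down replicate 1 or 2 or input replicate 1 (adjusted p = 0.182, 0.189 and 0.298), and also under 3 other scalings (RLE factors, library totals and nuclear reads as library size, adjusted p = 0.0852 to 0.259).

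The 16S end, summed over its 3 sites, was at 1554 and 2105 CPM in the STAU1 pull-downs and at 9347 and 10451 in the STAU1 inputs. In the GFP pull-downs it was at 1349 and 2436 CPM, and in the GFP inputs at 8114 and 11565. The log2 change was -2.44 ± 0.24 (adjusted p = 3.65e-06) for STAU1 and -2.38 ± 0.24 (adjusted p = 6.23e-06) for GFP, by edgeR. Nearly all of these reads lay at 3230, where the log2 change was -2.43 and -2.37.

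The 2 minor sites of the 16S end were much scarcer. The site at 3201, 30 nt before the gene end, was at 5.72 and 6.59 CPM in the STAU1 pull-downs and 60.3 and 50.5 in the inputs. In the GFP pull-downs it was at 1.38 and 3.64 CPM, against 33.4 and 45.9 in the inputs. Its log2 change was the largest called drop among the rRNA sites in both tags (-3.17 ± 0.38, adjusted p = 4.03e-05, and -3.98 ± 0.50, adjusted p = 5.01e-05, edgeR). The GFP value rests on only 2 and 5 reads in the pull-downs, and the STAU1 value on 37 and 40. The site at 3259, past the gene end on the side of tRNA-Leu, was called in the STAU1 pull-down (-2.07 ± 0.50, adjusted p = 0.0155) and not in the GFP pull-down (-1.49 ± 0.55, adjusted p = 0.145).

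Internal ends were lower in both pull-downs too. Those of MT-RNR1 summed to 578 and 501 CPM in the STAU1 pull-downs against 1684 and 1474 in the inputs, and to 645 and 625 in the GFP pull-downs against 1450 and 1518. The log2 change was -1.55 ± 0.16 (adjusted p = 9.26e-06) and -1.23 ± 0.16 (adjusted p = 0.000103, edgeR). Those of MT-RNR2 summed to 2190 and 1871 CPM in the STAU1 pull-downs against 6547 and 6231 in the inputs, and to 3193 and 3243 in the GFP pull-downs against 5831 and 6229. The log2 change was -1.65 ± 0.15 (adjusted p = 1.52e-06) and -0.91 ± 0.14 (adjusted p = 0.000556, edgeR). Each of the 4 classes was thus called lower in both pull-downs, with 2.89% (STAU1) and 3.93% (GFP) of the features in the table with summed classes called lower. Per kb of gene, internal ends were more frequent in the 16S than in the 12S rRNA in the STAU1 inputs, 3944 ± 138 against 1593 ± 149 CPM per kb (SD, n = 2).

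**Figure D3:**
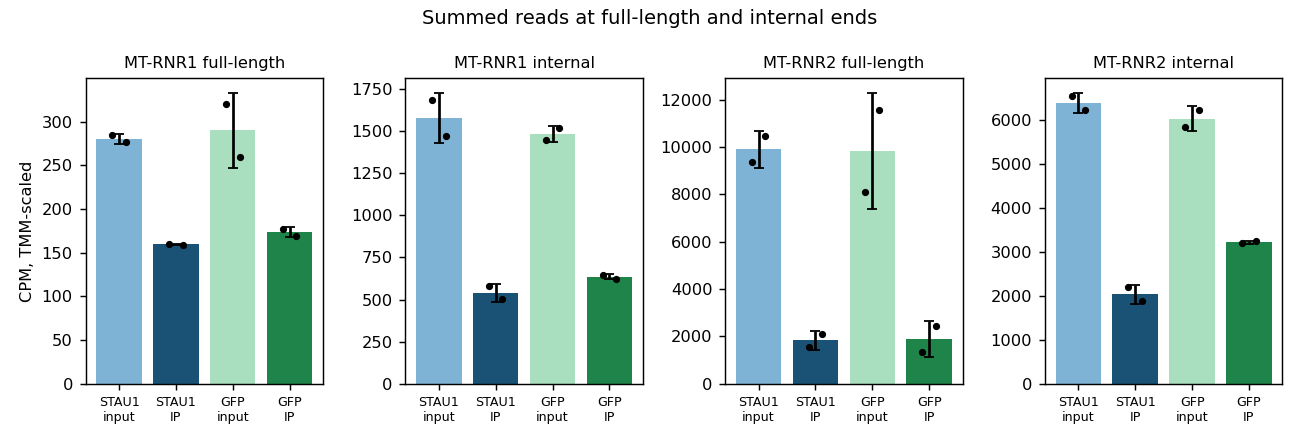
Reads summed over the sites of each class in CPM scaled by TMM, by group; bars are means of 2 libraries, points the libraries and error bars the SD. Pull-downs lie below their inputs in all panels, furthest at the MT-RNR2 full-length end (1829 ± 389 against 9899 ± 781 for STAU1) and least at the MT-RNR1 full-length end (160 ± 0.96 against 280 ± 5.74).

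Single internal sites of MT-RNR1 varied around this level. The site at 752, near the 5′ end of the 12S gene, was at 82.5 and 108 CPM in the STAU1 pull-downs and 380 and 238 in the inputs, and at 113 and 127 CPM in the GFP pull-downs against 205 and 218. Its log2 change was -1.70 with STAU1 and -0.81 with GFP (adjusted p = 0.000155 and 0.0488, edgeR). The site at 1423 had a log2 change of -1.30 with STAU1 and -0.94 with GFP (adjusted p = 0.00368 and 0.0359). The GFP calls at both sites were lost under RLE factors, library totals and nuclear reads as library size. They were also lost with any single GFP library left out. The call at 752 was lost with DESeq2 too, and that at 1423 without STAU1 input replicate 2. The other 4 of the 6 most abundant internal sites, at 719, 813, 892 and 1565, had log2 changes of -1.19 to -1.62 with STAU1, all called, and of -0.91 to -1.96 with GFP, called at all but 719. The STAU1 call at 719 was lost without STAU1 pull-down replicate 2 or input replicate 1. The GFP call at 892 was lost without GFP pull-down replicate 1. With GFP, 719 was called under a looser filter, with a replicate block and without either STAU1 pull-down. The lowest called values of MT-RNR1 with STAU1 were at 1287 (-2.94 ± 0.32), just after the stretch without sites, and at 1354 (-2.66 ± 0.67), which rests on few reads and lost its call without STAU1 pull-down replicate 1 or input replicate 1. With GFP the lowest was at 1006 (-2.42 ± 0.28).

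Among the 6 most abundant internal sites of MT-RNR2, log2 changes with GFP ran from -2.60 at 3175 to -0.07 at 3043. The sites at 3128 and 3175, 103 and 56 nt before the gene end, had log2 changes of -1.53 and -2.21 with STAU1 and -2.26 and -2.60 with GFP. The site at 3128, for instance, was at 94.3 and 98.7 CPM in the STAU1 pull-downs and at 62.9 and 68.5 in the GFP pull-downs, with 275 to 340 in the inputs. Those at 1936 and 2370 had changes of -1.31 and -1.83 with STAU1 and -1.08 and -1.56 with GFP, and the site at 2818 of -1.66 and -0.82. All 5 passed the threshold in both pull-downs (edgeR, adjusted p from 1.95e-06 to 0.0134). The GFP call at 2818 was lost under library totals and nuclear reads as library size, and without GFP input replicate 2. Without either GFP pull-down, the GFP calls at 2818 and 1936 were lost. With STAU1 the lowest called internal values were at 2677 (-2.98 ± 0.56) and 2481 (-2.63 ± 0.33). Across internal sites, Spearman's rho between log2 change and distance from the gene end with STAU1, given as a description, was -0.02 over 20 sites of MT-RNR1 and -0.05 over 44 of MT-RNR2, and with GFP 0.33 and 0.09.

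The double ratio, the change with STAU1 minus the change with GFP, asked whether the STAU1 pull-down differed from the GFP control. At the rRNA sites 1 of 68 was called lower and 0 higher by edgeR, where 0.157% of all sites were called lower and 0.53% higher. At an unadjusted p under 0.05 there were 10 lower and 2 higher, where 3.63% of all sites were lower and 7.5% higher. DESeq2 called 4 lower (752, 2481, 2818 and 3043) and 0 higher of the 53 rRNA sites to which it gave an adjusted p, where it called 3.31% of 9538 such sites lower and 4.46% higher. The median was -0.40 for the rRNA sites and 0.30 for all sites. For the full-length ends the double ratio was -0.07 (95% interval -0.64 to 0.50, adjusted p = 0.974) for MT-RNR1 and -0.06 (-0.72 to 0.61, adjusted p = 0.991) for MT-RNR2. The intervals are wide, and leave room for differences of either sign.

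The internal ends of MT-RNR1 gave -0.32 (95% interval -0.80 to 0.15, adjusted p = 0.663, edgeR). Those of MT-RNR2 gave -0.75 (-1.17 to -0.32), which did not pass after adjustment over all features (adjusted p = 0.109). It passed with each of 3 other scalings and with DESeq2 (values of -0.88 to -0.93, adjusted p from 3.13e-05 to 0.0269). With the site at 3043 left out of the sum, a choice made after its values were seen, the value was -0.40 (adjusted p = 0.489).

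That site, at 3043, was the 1 rRNA site called in the double ratio. It was at 783 and 565 CPM in the STAU1 pull-downs and at 2003 and 1793 in the STAU1 inputs. In the GFP pull-downs it was at 1435 and 1377 CPM, and in the GFP inputs at 1396 and 1561. With STAU1 the groups lay far apart, while the GFP pull-downs lay within or next to the range of their inputs. The log2 change was -1.49 ± 0.18 with STAU1 (adjusted p = 3.15e-05) and -0.07 ± 0.17 with GFP (adjusted p = 0.893), and the double ratio was -1.42 ± 0.25 (adjusted p = 0.00796, edgeR). The GFP value turned positive under 3 other scalings and DESeq2 (0.08 to 0.24) and without GFP input replicate 2 (0.04). It was -0.51 (adjusted p = 0.361, edgeR) with a filter of at least 1 read in 2 libraries. The double ratio lost its call without GFP pull-down replicate 1 (-1.39, adjusted p = 0.118), without GFP pull-down replicate 2 (-1.46, adjusted p = 0.0666) and with the filter of at least 1 read in 2 libraries (-1.26, adjusted p = 0.102). With 1 GFP pull-down left out, the other is assumed to vary like the other groups.

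Within its own gene, 3043 took 31.6 and 24.2% of MT-RNR2 reads in the GFP pull-downs, 20.9 and 14.2% in the STAU1 pull-downs, 12.6 and 10.8% in the STAU1 inputs and 10.0 and 8.79% in the GFP inputs. Its share was thus higher in all 4 pull-downs than in any input. So were those of 2818 and 1936, while those of 2370, 3128 and 3175 overlapped between pull-downs and inputs. Of the internal reads of MT-RNR2, 3043 took 44.91 and 42.42% in the GFP pull-downs against 23.96 and 25.12% in the GFP inputs. In the STAU1 libraries it took 35.7 and 30.08% in the pull-downs and 30.68 and 28.82% in the inputs, which overlapped. In the fractions 3043 took 14.4% of MT-RNR2 reads in wild-type cytoplasm and 6.42% in knockout cytoplasm.

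Full-length shares, which compare ends of 1 gene within a library and need no scaling between libraries, moved in opposite directions in the 2 rRNAs. The share of MT-RNR1 reads at its full-length end was 14.5 and 15.8% in the STAU1 inputs and 18.1 and 14.6% in the GFP inputs. It was 21.7 and 24.1% in the STAU1 pull-downs and 21.6 and 21.4% in the GFP pull-downs. The 4 pull-downs all lay above the 4 inputs, with means of 22.2 ± 1.27% and 15.7 ± 1.68% (SD, n = 4 each), a difference of 6.44 percentage points (two-sided exact permutation p = 0.0286, also after Benjamini-Hochberg adjustment over 3 measures). This p is the smallest that 4 against 4 libraries can give. The test pooled the STAU1 and GFP pull-downs and took all libraries as exchangeable, without regard to replicate numbers. The MT-RNR2 share and the rRNA ratio, tested below in the same way, were higher in the library numbered 2 in all 4 groups.

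For MT-RNR2 the order was the reverse. Its full-length share was 58.8 and 62.7% in the STAU1 inputs and 58.2 and 65.0% in the GFP inputs, against 41.5 and 52.9% in the STAU1 pull-downs and 29.7 and 42.9% in the GFP pull-downs. The pull-downs all lay below the inputs, though they were spread widely among themselves, with means of 41.8 ± 9.52% and 61.2 ± 3.23% (SD, n = 4 each) and a difference of -19.4 points (exact permutation p = 0.0286, adjusted 0.0286). Within each tag the difference kept its sign: 7.77 and 5.12 points for MT-RNR1, and -13.5 and -25.3 points for MT-RNR2, in STAU1 and GFP libraries. With 2 against 2 libraries no exact p can go below 0.333. With a window of 60 nt, which adds the internal site at 1565 to the 12S end, the MT-RNR1 difference was 4.54 points (exact permutation p = 0.0571).

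The balance between the rRNAs shifted as well. There were 8.08, 9.53, 7.87 and 10.0 MT-RNR2 reads for each MT-RNR1 read in the inputs (STAU1, then GFP), and 5.07, 6.02, 5.52 and 7.15 in the pull-downs in the same order. The log2 ratio was 3.14 ± 0.17 in inputs and 2.56 ± 0.21 in pull-downs (SD, n = 4 each), without overlap, a difference of -0.58 (exact permutation p = 0.0286, adjusted 0.0286). It was -0.67 within the STAU1 and -0.50 within the GFP libraries.

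**Figure D4:**
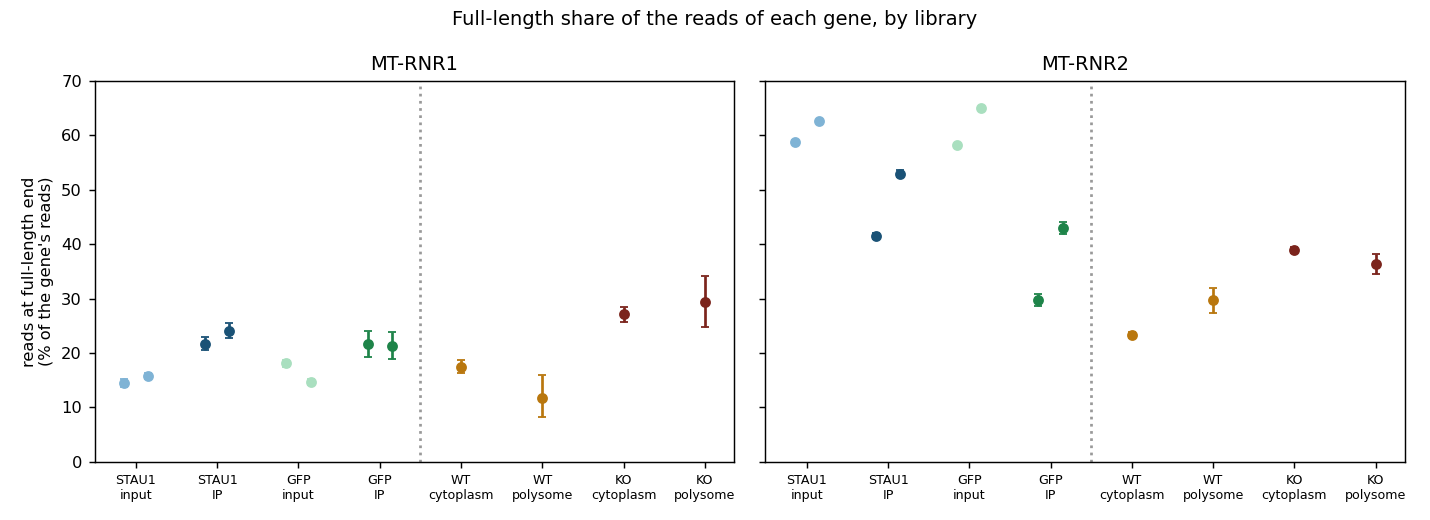
Percent of each gene's reads at its full-length end, by library; bars are exact 95% counting intervals, and the dotted line parts the pull-down table from the fraction table, which were counted separately. Pull-downs lie above inputs for MT-RNR1 and below them for MT-RNR2, and both cytoplasmic shares are higher in the knockout (27.1 and 39.0%) than in the wild type (17.5 and 23.2%).

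Between the 2 inputs, both from knockout cells, no rRNA site was called by edgeR. Of 68 sites, 0 were called higher and 0 lower (0.00889% and 0% of all sites), and 1 was higher and 0 lower at an unadjusted p under 0.05 (1.89% and 2.12% of all sites). DESeq2 called 0 of the 49 rRNA sites to which it gave an adjusted p, where it called 0.132% of 7575 such sites higher and 0% lower. For the summed classes the log2 STAU1 input over GFP input ranged from -0.05 to 0.09, with 95% intervals between -0.46 and 0.48.

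The sites elsewhere in the genome whose levels over the 8 libraries followed those of the rRNA sum most closely, among 6174 candidates, lay on chromosome 1 (plus strand, 8045336, Pearson's r = 0.996), chromosome 16 (minus strand, 18794290, r = 0.995), the mitochondrial plus strand (15888, r = 0.994) and chromosome 17 (minus strand at 40276998 and plus strand at 79858131, r = 0.993 each). The mitochondrial one was at 407 to 998 CPM in the pull-downs and 2960 to 5045 in the inputs.

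In polysomes the rRNA ends were scarce in both genotypes. MT-RNR1 was at 1417 CPM in wild-type cytoplasm and 96.1 in wild-type polysomes, and at 1342 and 96.6 in the knockout. MT-RNR2 was at 9013 and 540 CPM in the wild type and at 10400 and 678 in the knockout. On the log2 scale, polysome over cytoplasm was -3.88 (wild type) and -3.80 (knockout) for MT-RNR1, and -4.06 and -3.94 for MT-RNR2. With 1 library a group there was no test, and the 95% intervals given here cover counting error only.

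All 8 rRNA sites with at least 50 reads in each fraction library (754, 1762, 2370, 2405, 3043, 3128, 3175 and 3230) were at least 4-fold lower in polysomes in both genotypes, which held for 0.755% of the 4766 such sites of the table. Their median log2 ratio was -3.93 in the wild type and -3.84 in the knockout, where all sites had -0.02 and 0.01. The 31 other mitochondrial plus-strand sites at that depth had medians of -0.92 and -1.16, and the 17 on the minus strand -3.07 and -2.63. Antisense reads made up 24.5 and 26.8% of the rRNA window's reads in polysomes and 6.02 and 6.11% in cytoplasm.

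Between genotypes the classes differed. The 16S end was at 2093 CPM in wild-type and 4055 in knockout cytoplasm (log2 0.95, 95% interval 0.91 to 1.00), and the 12S end at 248 and 364 CPM (0.56, 0.41 to 0.70). Summed internal ends were close or lower in the knockout: 6920 and 6348 CPM for MT-RNR2 (-0.12, -0.15 to -0.10) and 1169 and 978 for MT-RNR1 (-0.26, -0.33 to -0.18). Single internal sites with at least 50 reads in each fraction library went both ways in cytoplasm. The log2 change was -0.96 at 3043, -0.86 at 754, -0.37 at 1762 and -0.04 at 2370, but 0.24 at 3128, 0.44 at 2405 and 0.53 at 3175. Under library totals the summed internal ends gave 0.02 (-0.01 to 0.05) for MT-RNR2 and -0.12 (-0.19 to -0.04) for MT-RNR1. The full-length ends then gave 1.10 for MT-RNR2 and 0.70 for MT-RNR1. The full-length share was thus 27.1% in knockout against 17.5% in wild-type cytoplasm for MT-RNR1, and 39.0 against 23.2% for MT-RNR2. In polysomes it was 29.3% (24.8 to 34.2) against 11.7% (8.16 to 16.0) for MT-RNR1 and 36.3% (34.5 to 38.2) against 29.7% (27.4 to 32.0) for MT-RNR2. Each genotype is 1 clone and 1 library, so genotype, clone and library cannot be told apart.

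The polysome ratio itself differed little between genotypes next to its size. Knockout minus wild type was 0.78 (95% interval 0.21 to 1.36) for the 12S end, which rests on 33 reads in the wild-type polysomes, and -0.34 (-0.50 to -0.17) for the 16S end. It was -0.06 (-0.32 to 0.20) for the internal ends of MT-RNR1 and 0.31 (0.19 to 0.42) for those of MT-RNR2. The site at 3043 was at 1298 CPM in wild-type and 668 in knockout cytoplasm, and at 72.6 and 65.2 CPM in polysomes, a difference in the log2 ratio of 0.80 (0.53 to 1.08).

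**Figure D5:**
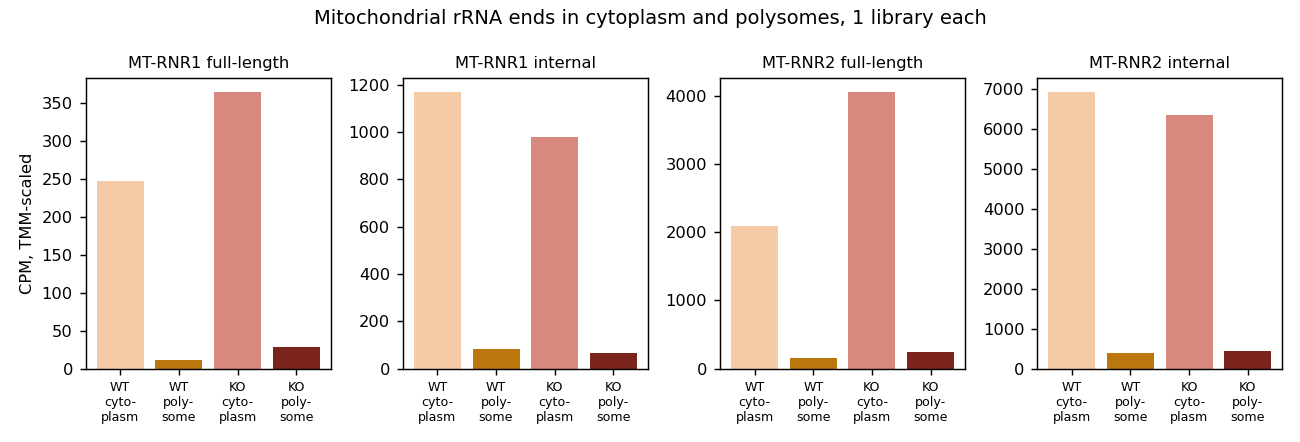
Reads summed over each class in CPM scaled by TMM in cytoplasm and polysomes of wild-type (WT) and STAU1-knockout (KO) cells, 1 library a bar, without error bars because there are no replicates. Polysomal levels are far below cytoplasmic ones in every panel, and the full-length ends are higher in knockout than in wild-type cytoplasm (4055 against 2093 CPM for MT-RNR2).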

How the data were processed

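The authors deposited unnormalized read counts for each cluster of poly(A) sites, in one table for 8 pull-down and input libraries and another for 4 fraction libraries. Per the labels' protocols, poly(A)+ RNA was caught on oligo(dT) beads, fragmented with RNase III, and its tail digested with RNase H before PCR. Per the submitters' processing notes, the aligner was STAR and the build hg19. The clustering of sites and the treatment of reads with several matches are, as far as the sources used here go, not given.

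Counts of the whole pull-down table were fitted by the quasi-likelihood method of edgeR 4.0.16 (R 4.3.3, 4 groups over 8 libraries, TMM, filterByExpr, Benjamini-Hochberg adjustment over 33744 sites, threshold 0.05), then again with the rRNA sites replaced by their sums per class or per gene. Alternatives were DESeq2 1.42.0, RLE factors, library totals, nuclear reads as library size, other filters and windows, a replicate block and each library left out. Shares were compared by exact permutation tests (scipy 1.17.1). For the fractions, TMM-scaled ratios were taken without a test. The edgeR fit was run on simulated counts with known changes in the STAU1 pull-down. These had the same dispersion at every site and changes at the more abundant sites only, so they say little about scarce sites. The share tests and the fraction ratios were not run on simulated counts. Intervals of the double ratio and the input comparison come from the edgeR fit. Those of shares and of the fractions cover counting error only: the reads were amplified by PCR and carry no molecular identifier that was used.

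Sites named are the most abundant full-length site and 6 internal sites of each gene, sites called in a comparison (the 5 largest changes in each direction where there are more than 10), and the 5 tested sites elsewhere with an average log2 CPM of at least 4 that are most like the rRNA sum. The genes, lists and rules were chosen with earlier results of these data known. No mitochondrial sequence was used here.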

Additional observations from a re-analysis of the deposited data

Results flagged for a closer look

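The site at 3043 in MT-RNR2 changed differently in the 2 pull-downs, by a test of the difference itself: its log2 double ratio was -1.42 ± 0.25 (adjusted p = 0.00796, edgeR). It was below the input in both STAU1 pull-downs (783 and 565 against 2003 and 1793 CPM), and near the input in both GFP pull-downs (1435 and 1377 against 1396 and 1561 CPM). Leaving out GFP pull-down replicate 1 (-1.39, adjusted p = 0.118) or replicate 2 (-1.46, adjusted p = 0.0666, edgeR) ended the call; the remaining one is then assumed to vary like the other groups.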

How the results depend on the processing

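Of the alternatives tried, none turned the direction of a summed class or gene in either pull-down over its input. The count of rRNA sites called lower in the double ratio was 0 with at least 1 read in 2 libraries and 4 with DESeq2. The GFP change of the MT-RNR1 end lost its call with RLE factors (-0.59), library totals (-0.43) and nuclear reads as library size (-0.51). The double ratio of MT-RNR2 internal ends passed with RLE factors (-0.88), library totals (-0.92), nuclear reads (-0.93) and DESeq2 (-0.88), and that of the whole MT-RNR2 with DESeq2 (-0.57). Values near 0 changed sign: the STAU1 over GFP input of the MT-RNR1 end (0.0138 with RLE, 0.0397 with library totals, 0.0422 with nuclear reads, 0.0136 with DESeq2), the double ratios of the full-length ends with that looser filter (0.0891 for MT-RNR1, 0.11 for MT-RNR2) and with a window of 60 nt (0.0417 for MT-RNR1), and, without 3043, the input comparison of MT-RNR2 (-0.0001) and of its internal ends (-0.0199). The cause was not tested.

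The GFP change at 3043 was 0.0831 (RLE, DESeq2), 0.24 (library totals), 0.16 (nuclear reads) and -0.51 (at least 1 read in 2 libraries), and -0.1118 to 0.036 with each library left out. The share differences were no longer past the threshold with 60 nt for MT-RNR1 (4.54) and within a tag (STAU1 7.77, -13.5 and -0.67; GFP 5.12, -25.3 and -0.50), where 2 against 2 libraries cannot pass. Under library totals the log2 polysome ratios of wild type and knockout were -3.62 and -3.60 (MT-RNR1), -3.53 and -3.64 (its internal ends), -3.80 and -3.74 (MT-RNR2), -3.45 and -3.84 (its full-length ends) and -3.93 and -3.68 (its internal ends).

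With each library left out, the share differences were 5.82 to 7.23, -23.1 to -15.4 and, for the log2 rRNA ratio, -0.68 to -0.51, where 3 against 4 libraries cannot go below an exact p of 0.0571. In the edgeR fits the lone library left in a group is assumed to vary like the other groups. Sites called lower numbered 40 to 47 (STAU1), 17 to 37 (GFP) and 0 to 1 (double ratio). The MT-RNR1 end ranged from -0.85 to -0.79 (STAU1) and -0.86 to -0.54 (GFP), and the double ratios of the ends from -0.26 to 0.0564 (MT-RNR1) and -0.42 to 0.43 (MT-RNR2). The input comparison ranged from -0.0189 to 0.20 (MT-RNR1), -0.17 to 0.15 (its end), -0.0097 to 0.24 (its internal ends), -0.0889 to 0.25 (MT-RNR2) and -0.19 to 0.31 (its end).

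Equal replicate numbers were not shown to mark paired libraries: deviations of same-numbered libraries correlated at -0.191 to 0.101 over 6218 sites, though the MT-RNR2 full-length share and the rRNA ratio were higher in the library numbered 2 in all 4 groups. With a replicate block, 50 (STAU1), 38 (GFP) and 1 (double ratio) rRNA sites were called lower. Over all sites, double-ratio calls went from 179 higher and 53 lower without the block to 389 and 123 with it. Whether this reflects pairing was not tested, and the permutation tests took no account of replicate numbers. Among 574 values of single named sites, 5 changed sign, 47 lost and 4 gained a call. The wild-type polysomes held only 1875 rRNA reads, and 3 of the 71 sites were too scarce to test.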
